A study of Homo sapiens with 24 samples.

Results

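The vacuolar ATPase (V-ATPase) subunit genes described here were 10 of the 29794 genes in the count tables, namely ATP6V1A, ATP6V1B2, ATP6V1C1, ATP6V1D, ATP6V1E1, ATP6V1H, ATP6V0A1, ATP6V0A2, ATP6V0C and ATP6V0D1. They were chosen by name, through the gene symbols that belong to the identifiers in the tables. Of the 10 genes, 9 had enough reads to be tested. The V-ATPase is a rotary proton pump that acidifies lysosomes, endosomes and secretory vesicles. Its cytosolic V1 sector hydrolyses ATP and turns a central stalk, which drives protons through the membrane-embedded V0 sector. Release and reattachment of V1 regulate the pump, and on the lysosome it also takes part in amino acid signalling to mTORC1, the kinase complex that controls growth.

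RNA-seq was done on the Flp-In T-REx 293 line, which derives from human embryonic kidney (HEK293), to ask how mRNA levels respond to 7 different microRNAs (miRNAs). Each culture was transduced with a lentiviral vector that held the miRNA hairpin in an intron of a doxycycline-inducible GFP reporter, or with the same vector lacking a hairpin (empty vector). Stably transduced cells were selected for 6 days in 1 mg/mL geneticin, and every culture, empty vector included, then received 1 µg/mL doxycycline for 7 days. Batch 1 comprised 2 libraries each of empty vector, miR-1 and miR-122, and batch 2 comprised 3 libraries each of empty vector, miR-133a and miR-155 and of miR-302a, its seed relative miR-372 and the further relative miR-373 (the miR-302a family). Replicate cultures were transduced and kept separately according to the study's methods, and comparisons were made only with the controls of the same batch.

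Library totals were 20153452 to 21595191 counts in batch 1 and 13047400 to 35040778 in batch 2. A known target of each miRNA checked the labels. TWF1 had a log2 fold change of -1.99 with miR-1, ALDOA of -0.47 with miR-122, TAGLN2 of -1.95 with miR-133a and JARID2 of -1.16 with miR-155. LATS2 had log2 fold changes of -0.85, -1.08 and -0.80 with miR-302a, with miR-372 and with miR-373, and all 7 values passed edgeR's quasi-likelihood test. The HEK293 markers VIM, KRT8, KRT18, PAX2 and NEFM were detected in every library. No library exceeded 1.21 CPM (counts per 1e6 counts of the library, after scaling) for any of 7 markers of leukocytes, liver, muscle or acid-secreting kidney cells, and SLC4A1 and FOXI1, which mark the kidney cells richest in V-ATPase, reached at most 0.339 and 0.143 CPM.

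A miRNA recognises mRNAs mainly by its seed, positions 2 to 8 counted from the 5′ end. The mature sequences below, from RefSeq (GRCh38.p14), show the seeds in capitals, since the seeds define which subunit mRNAs hold a match. The 7 miRNAs have 5 different seeds, because the miR-302a family shares 1 seed.
miR-1: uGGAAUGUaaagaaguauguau
miR-122: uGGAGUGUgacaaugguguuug
miR-133a: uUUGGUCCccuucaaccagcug
miR-155: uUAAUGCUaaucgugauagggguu
miR-302a: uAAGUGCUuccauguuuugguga
miR-372: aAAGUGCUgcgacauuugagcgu
miR-373: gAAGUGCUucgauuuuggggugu

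Matches were searched on the sense strand of the longest annotated 3′UTR of each gene. An 8mer pairs with positions 2 to 8 and has an A opposite position 1, a 7mer-m8 pairs with positions 2 to 8, and a 7mer-A1 pairs with positions 2 to 7 followed by that A. The 8mer letters were ACATTCCA for miR-1, ACACTCCA for miR-122, GGACCAAA for miR-133a, AGCATTAA for miR-155 and AGCACTTA for the miR-302a family. The 7mer-m8 lacks the last letter of the 8mer and the 7mer-A1 lacks the first. Matches in the 3′UTRs of ATP6V1A, ATP6V0A1, ATP6V0A2 and ATP6V1D are printed with the matched letters in capitals, as the sequences behind several of the comparisons further on, with called and uncalled changes among them. The matches of ATP6V1C1 and ATP6V1B2 are given by their position in the 3′UTR only.
ATP6V1A miR-1 7mer-m8 (chr3:113528431-113528460, plus strand): tcttatataaaacaaACATTCCtttgttct
ATP6V0A1 miR-1 7mer-m8 (chr17:40674543-40674572, plus strand): ggtcctcctgttcagACATTCCtatgttga
ATP6V1A miR-133a 7mer-A1 (chr3:113530423-113530452, plus strand): tgatgaagaaagtttGACCAAAtttgtttt
ATP6V0A2 miR-302a 7mer-A1 (chr12:124243752-124243781, plus strand): taccatgaagagattGCACTTAtccttgag
ATP6V0A2 miR-122 8mer (chr12:124246072-124246101, plus strand): tcagaaatacttagtACACTCCAcctgttc
ATP6V1D miR-155 7mer-m8 (chr14:67805009-67805038, minus strand): aaatacctcttaggaAGCATTAgcggtctc

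Coordinates are those of GRCh37, which underlies the hg19 build the reads were aligned to. The miR-302a window of ATP6V0A2 occurred again in the same 30 letters at chr12:124243810-124243839, so this 3′UTR held 2 such matches. Of the 9 tested genes and 7 miRNAs, 8 of 63 pairs had an 8mer or 7mer-m8 match in the 3′UTR, 12 had a 7mer-A1 only and 43 had none. Over all tested genes with an annotated 3′UTR, the share with an 8mer or 7mer-m8 was 14.4% with the miR-1 seed, 9.65% with miR-122, 9.12% with miR-133a, 13.0% with miR-155 and 26.4% with the miR-302a family. With 7mer-A1 matches included, those shares were 24.1%, 25.7%, 17.2%, 19.2% and 30.1%. A match describes the sequence and does not show binding.

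**Figure D1:**
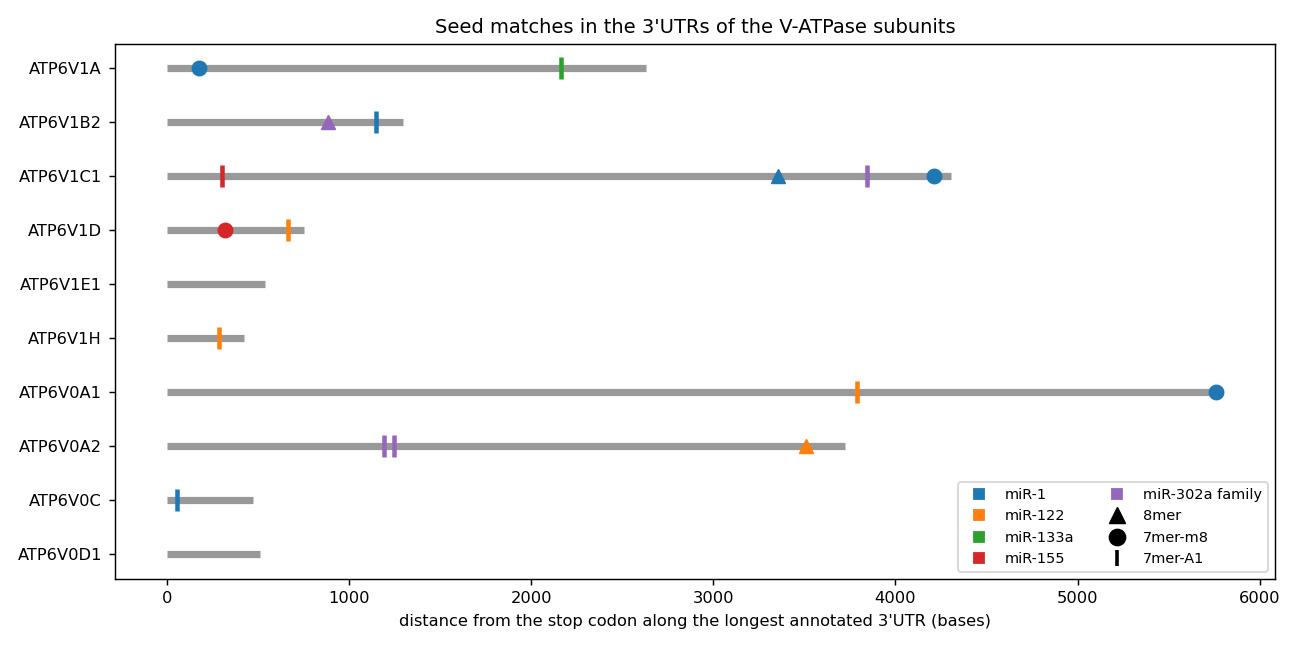
Each grey bar is the longest annotated 3′UTR of a V-ATPase subunit, with distance from the stop codon in bases on the x axis. Colours give the miRNA and symbols the kind of seed match. ATP6V1A had its miR-1 match at base 172 of 2629 and ATP6V0A1 at base 5759 of 5797, while ATP6V1E1 and ATP6V0D1 had no match to any of the 5 seeds.

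Without a miRNA, the subunit genes covered a wide range of levels, given as CPM per kilobase of exon so that genes of different length can be compared. Among the 9 tested members, ATP6V1E1, a subunit of the peripheral stalks that hold V1 to V0, had the highest level at 68.2 ± 2.45 CPM per kilobase in batch 1 (SD, n = 2) and 66.3 ± 6.72 in batch 2 (SD, n = 3). ATP6V1B2, the B subunit of the V1 head in most tissues, followed at 48.3 ± 0.374 and 47.6 ± 0.902. ATP6V0D1, which links the stalk to the membrane ring, was at 24.8 ± 1.12 and 23.8 ± 2.68, ATP6V1A, the catalytic ATP-hydrolysing subunit, at 24.3 ± 1.45 and 25.7 ± 0.415, and ATP6V0A1, the a1 isoform of the proton-conducting a subunit, at 23.1 ± 0.846 and 19.6 ± 0.792. These 3 genes did not keep 1 order. The libraries of ATP6V0D1 and ATP6V1A overlapped in both batches, and those of ATP6V0A1 overlapped with ATP6V1A in batch 1 only.

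The lower end was in the same order in both batches, with no overlap between neighbouring genes. ATP6V1D, part of the rotating stalk, was at 15.6 ± 1.08 and 17.3 ± 0.770 CPM per kilobase, ATP6V1H, needed for coupling and regulation of V1, at 11.4 ± 0.754 and 12.5 ± 0.372, ATP6V1C1, which clamps the peripheral stalks, at 10.1 ± 0.132 and 10.5 ± 0.609, and ATP6V0A2, the a2 isoform found on Golgi and endosomes, at 7.55 ± 0.206 and 7.85 ± 0.181. The isoforms restricted to kidney, bone, sperm or nerve cells were lower. ATP6V1C2, ATP6V1E2, TCIRG1, ATP6V1G2 and ATP6V1B1 were between 0.685 and 2.46 CPM per kilobase in batch 1, ATP6V0D2 and ATP6V0A4 had at most 2 reads in an empty vector library, and ATP6V1G3 had none.

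ATP6V0C, which encodes the proteolipid that forms most of the membrane ring, could not be measured. It had 0 to 2 reads in each of the 24 libraries, at or under a floor of 3 counts, so no fold change is given. The deposited length of the gene was 104 bases, against 1416 annotated exon bases, of which 1080 are shared with 2 other genes on the same strand. The annotation also lists 4 pseudogenes of ATP6V0C and 3 of ATP6V1E1, and among the other subunit genes 7 of ATP6V1G1 and 4 of ATP6V0E1. Only unique reads were counted, so reads that fit a gene and its pseudogene equally well would be left out. ATP6V0A1 shared 144 of its 12938 exon bases with other genes on the same strand, and the other 8 members shared none.

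**Figure D2:**
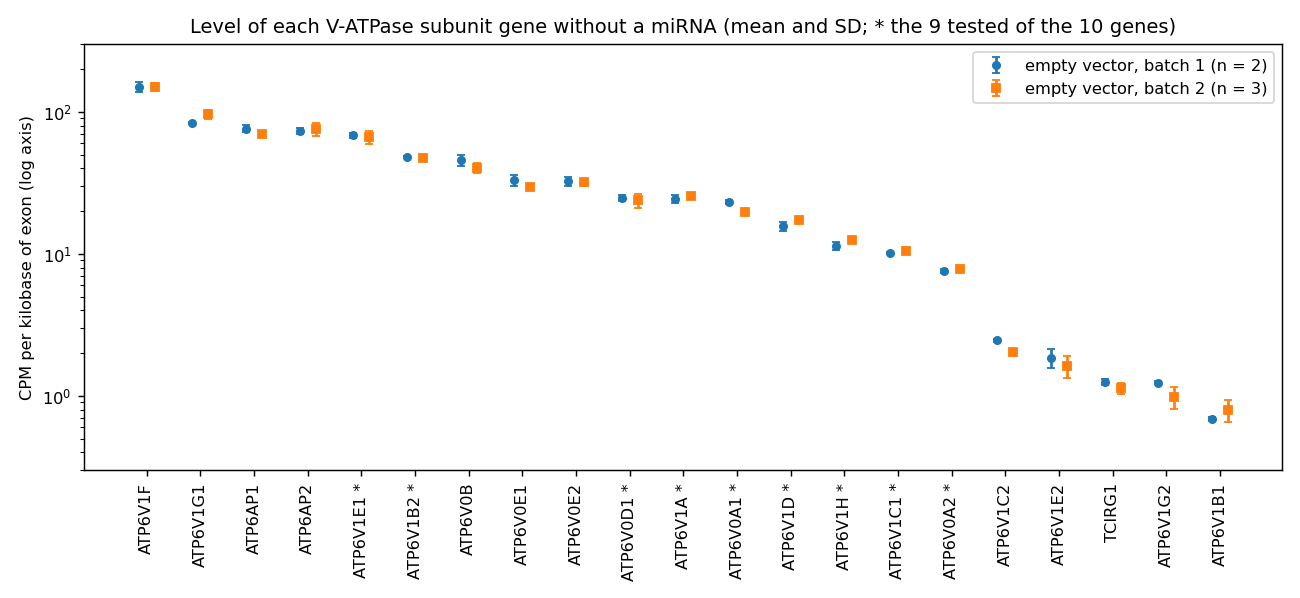
Level of each tested V-ATPase subunit gene in empty vector cells, as CPM per kilobase of exon on a log axis. Points are means and bars SDs over 2 libraries (batch 1) or 3 libraries (batch 2). ATP6V1E1 lay highest of the starred genes and ATP6V0A2 lowest, and the isoforms restricted to certain tissues lay below 2.5.

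The first comparison asked which subunit mRNAs change with miR-1, a muscle miRNA for which ATP6V1A and ATP6V1B2 have been named as targets. The mRNA of ATP6V1A and that of ATP6V0A1 fell and no member rose. ATP6V1A (ENSG00000114573.5, GRCh37 chromosome 3, 113465617 to 113530903) was at 108 and 118 CPM in the empty vector libraries and at 78.7 and 79.7 CPM in the miR-1 libraries. Both miR-1 libraries were below both controls. The level fell by 30.0%, a log2 fold change of -0.52 (edgeR adjusted p 2.5e-07, SE 0.0489). In RNA from a whole culture, fewer cells with a transcript and less of it per cell cannot be told apart. The miR-1 match of ATP6V1A lay 172 bases after the stop codon, in the 3′UTR of 7 of 8 annotated coding transcripts.

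ATP6V0A1 (ENSG00000033627.10, chromosome 17, 40610862 to 40674600) was at 109 and 103 CPM without and at 89.9 and 83.6 CPM with miR-1. Here too the groups did not overlap, and the log2 fold change was -0.29 (edgeR adjusted p 2.4e-04, SE 0.0488); the level fell by 18.2%. Its miR-1 match lay 32 bases from the end of the 3′UTR, in 6 of 19 coding transcripts, and a second 7mer-m8 lay in the coding sequence. The longest annotated 3′UTR, at 5797 bases, exceeds the deposited exon length of the gene, 4605 bases, so it was not counted in full. Both calls were made under each of the 11 alternatives, which gave log2 fold changes of -0.58 to -0.45 for ATP6V1A and of -0.34 to -0.23 for ATP6V0A1.

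ATP6V1B2, the other reported target, was at 143 and 144 CPM in the controls and at 140 and 128 CPM with miR-1. The log2 fold change was -0.10 (edgeR adjusted p 0.15, SE 0.0471), with a 95% confidence interval of -0.19 to 0.0026. Both miR-1 libraries lay below the controls, 1 of them by a few CPM only, and no alternative called the gene. Its 3′UTR held a 7mer-A1 match to miR-1.

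ATP6V1C1 was the 1 member with more than 1 miR-1 match in its 3′UTR, an 8mer and a 7mer-m8 at bases 3352 and 4210 of a 3′UTR of 4304 bases. It was at 57.8 and 56.8 CPM without and at 65.0 and 59.2 CPM with miR-1, a log2 fold change of 0.12 (edgeR adjusted p 0.15, SE 0.0574, 95% confidence interval -0.0033 to 0.24). The miR-1 libraries thus lay above the controls, not below them. The other 5 tested members had log2 fold changes of -0.12 (ATP6V1D) to 0.12 (ATP6V1E1, edgeR adjusted p 0.053) and did not pass. In all, 2 of 9 members were called lower and 0 higher, where 13.7% of all tested genes were called lower and 10.8% higher. The members' median log2 fold change was 0.03 and that of all tested genes -0.00011. Without empty vector replicate 2, ATP6V1D (-0.19, edgeR adjusted p 0.049) and ATP6V1E1 (0.17, edgeR adjusted p 0.015) were called as well, and with DESeq2 size factors ATP6V1E1 alone joined (edgeR adjusted p 0.0461).

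**Figure D3:**
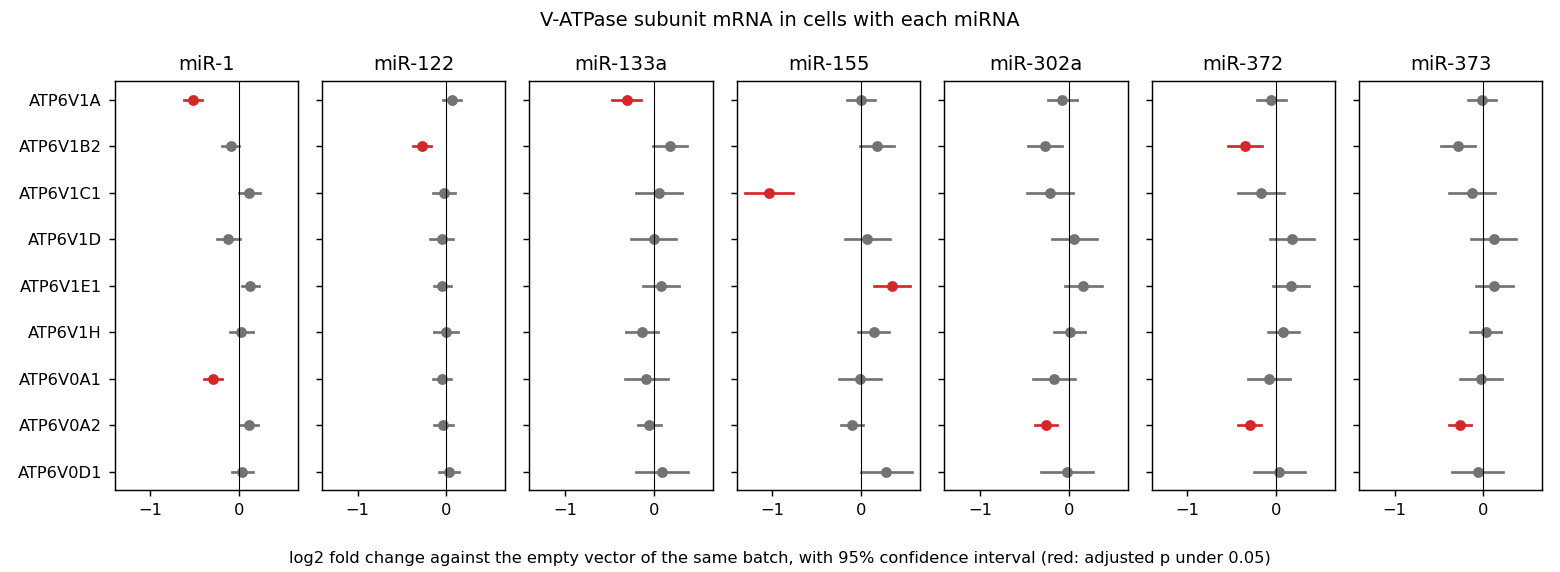
Log2 fold change of each tested subunit against the empty vector of the same batch (x axis) for the 7 miRNAs, with the 95% confidence interval as a bar and adjusted p under 0.05 in red. The largest decrease was that of ATP6V1C1 with miR-155 at -1.04, followed by ATP6V1A with miR-1 at -0.52.

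The liver miRNA miR-122, whose seed is near that of miR-1, changed another subunit. ATP6V1B2 (ENSG00000147416.6, chromosome 8, 20054892 to 20084330) was at 143 and 144 CPM in the controls and at 117 and 120 CPM with miR-122, without overlap. It fell by 17.4%, with a log2 fold change of -0.28 (edgeR adjusted p 8.0e-04, SE 0.0476). Its 3′UTR held no match to the miR-122 seed. Without miR-122 replicate 1 the edgeR adjusted p was 0.0506 at a log2 fold change of -0.25. ATP6V0A2, which held the only 8mer for miR-122 among the members, was at 73.3 and 70.6 CPM without and 69.1 and 71.3 CPM with it. Its groups overlapped, with a log2 fold change of -0.04 (edgeR adjusted p 0.76, SE 0.0494, 95% confidence interval -0.14 to 0.068). Of the 9 members, 1 was called lower and 0 higher, beside 4.06% and 1.86% of all genes, and the other 8 lay between -0.05 and 0.06.

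miR-1 and miR-122 were also compared with each other, since their seeds differ and the vector is the same. ATP6V1A was lower with miR-1 than with miR-122 (log2 difference -0.58, SE 0.0488, edgeR adjusted p 2.7e-08), and so was ATP6V0A1 (-0.24, SE 0.0490, edgeR adjusted p 9.7e-04). The miR-122 libraries were at 117 and 120 CPM for ATP6V1A and at 102 and 103 CPM for ATP6V0A1. ATP6V1B2 (0.18), ATP6V1E1 (0.17) and ATP6V0A2 (0.15) were higher with miR-1, at edgeR adjusted p 0.0074, 0.0075 and 0.028. The miRNA groups did not overlap for any of these 5 genes. So 2 members were called lower and 3 higher, beside 16.0% and 15.2% of all genes.

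The decreases of ATP6V1A and ATP6V0A1 were called under all 11 alternatives. The 3 increases were not. ATP6V1B2 had edgeR adjusted p 0.205 without miR-1 replicate 1 and 0.0935 without miR-122 replicate 1, and ATP6V1E1 0.0728 without miR-1 replicate 2 and 0.0869 without miR-122 replicate 2. ATP6V0A2 was lost without any 1 of the 4 libraries (edgeR adjusted p 0.0679 to 0.181) and in the DESeq2 Wald test (DESeq2 adjusted p 0.132). ATP6V1C1, not called here, passed when the 2 groups were fitted alone (edgeR adjusted p 0.0312) and without miR-1 replicate 2 (0.0328).

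With miR-133a, a second muscle miRNA, the catalytic subunit was again the one that fell. ATP6V1A was at 122.04, 118.3 and 119.4 CPM in the empty vector libraries of batch 2 and at 100, 101 and 89.6 CPM with miR-133a. The groups did not overlap and the level fell by 19.1%, a log2 fold change of -0.31 (edgeR adjusted p 0.022, SE 0.0766). Its 3′UTR held a 7mer-A1 for miR-133a at base 2164, in 4 of 8 coding transcripts. The call was lost without any 1 of the 6 libraries, at edgeR adjusted p 0.054 to 0.148 and log2 fold changes of -0.34 to -0.25, the weakest without miR-133a replicate 3. ATP6V1B2 pointed the other way, at 144, 139 and 142 CPM without and 162, 158 and 164 CPM with miR-133a, but did not pass (log2 fold change 0.19, SE 0.0915, edgeR adjusted p 0.26, and 0.0466 with the 2 groups fitted alone). Here 1 of 9 members was called lower and 0 higher, beside 3.97% and 1.37% of all genes, and the other 8 lay between -0.13 and 0.19.

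miR-155, best known from immune cells, gave the largest change of any member. ATP6V1C1 (ENSG00000155097.7, chromosome 8, 104033291 to 104085279) was at 60.1, 62.0 and 55.3 CPM in the controls and at 28.7, 31.9 and 25.8 CPM with miR-155. Every miR-155 library lay far below every control, and the level fell by 51.3%. The log2 fold change was -1.04 (edgeR adjusted p 3.4e-05, SE 0.129), between -1.12 and -0.97 under 13 alternatives that all called it. Its 3′UTR held a 7mer-A1 for miR-155 at base 300, in 4 of 4 coding transcripts, and its coding sequence held a 7mer-m8. With all libraries, ATP6V1C1 was called with no other miRNA.

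ATP6V1E1 (ENSG00000131100.8, chromosome 22, 18074902 to 18111515) rose with miR-155. It was at 105, 87.6 and 105 CPM without and at 114, 149 and 116 CPM with the miRNA, a log2 fold change of 0.35 (edgeR adjusted p 0.035, SE 0.0981). The groups did not overlap, but miR-155 replicate 2 was high and control replicate 2 low. The edgeR adjusted p was 0.236 without the former, 0.194 without the latter, 0.0608 without empty vector replicate 3 and 0.111 when the 2 groups were fitted alone. ATP6V0D1 and ATP6V1D were likewise highest in miR-155 replicate 2, at 69.9 and 57.0 CPM against 54.1 and 54.6 CPM, and 43.7 and 44.9 CPM, in the other miR-155 libraries, and neither was called.

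ATP6V1D was the only tested member with a 7mer-m8 for miR-155 in its 3′UTR, and its log2 fold change was 0.07 (edgeR adjusted p 0.78, SE 0.121, 95% confidence interval -0.19 to 0.32), and -0.06 without miR-155 replicate 2. With miR-155, 1 member was called lower and 1 higher, beside 4.81% and 2.82% of all genes. The other 7 lay between -0.11 and 0.28.

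**Figure D4:**
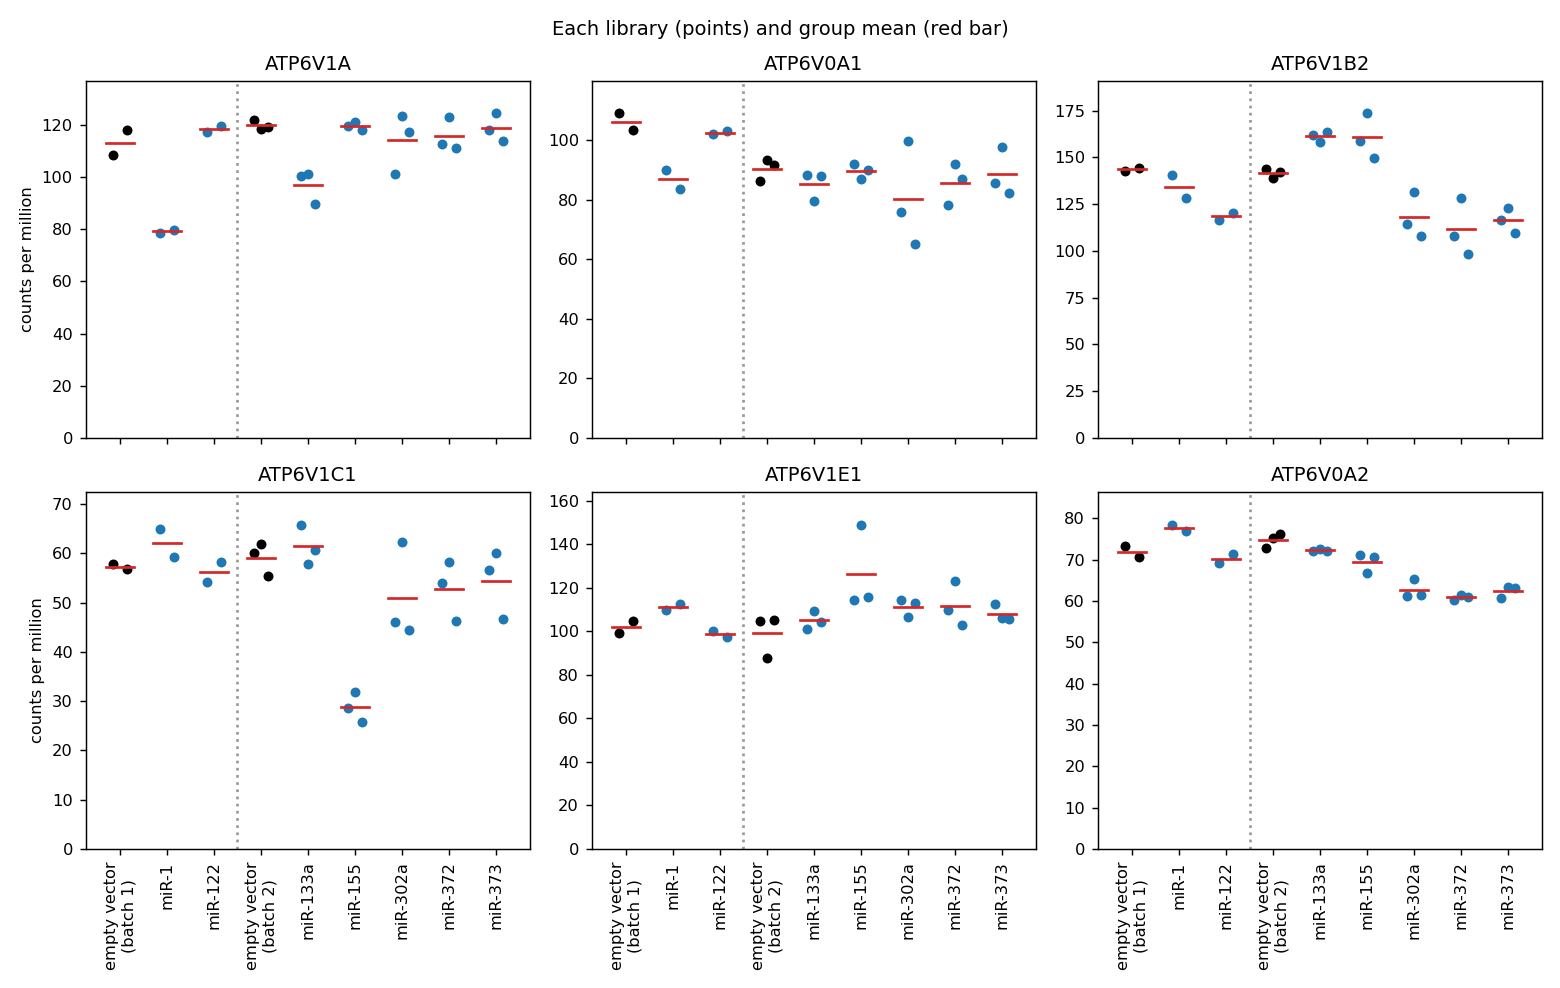
CPM of 6 subunits in each of the 24 libraries (points), by group, with group means as red bars and a dotted line between the batches. ATP6V1C1 with miR-155 stands at 25.8 to 31.9 CPM, and ATP6V0A2 is below its controls with each miRNA of the miR-302a family.

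The miRNAs of the remaining seed, the miR-302a family, are typical of embryonic stem cells, and ATP6V0A2 was the 1 member called with all of them. They share their control libraries, so the 3 comparisons are not independent of each other. ATP6V0A2 (ENSG00000185344.9, chromosome 12, 124196900 to 124246302) was at 72.9, 75.2 and 76.3 CPM in the controls. It was at 61.1, 65.2 and 61.4 CPM with miR-302a, at 60.2, 61.5 and 60.9 CPM with miR-372 and at 60.7, 63.4 and 63.1 CPM with miR-373. No miRNA library reached the lowest control. The log2 fold changes were -0.26 (edgeR adjusted p 0.012, SE 0.0602), -0.30 (edgeR adjusted p 0.0033, SE 0.0601) and -0.26 (edgeR adjusted p 0.014, SE 0.0599), or -16.3%, -18.6% and -16.5%. The 2 7mer-A1 matches printed above lay at bases 1188 and 1246 of a 3′UTR of 3723 bases, which 1 of 5 coding transcripts has.

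ATP6V1B2 had the strongest match to this seed among the members, an 8mer at base 881 of 1294 in the 3′UTR and a 7mer-m8 in the coding sequence. It was at 144, 139 and 142 CPM in the controls, at 114, 131 and 108 CPM with miR-302a, at 108, 128 and 98.2 CPM with miR-372 and at 116, 123 and 110 CPM with miR-373. All 9 miRNA libraries were below all 3 controls, with a wider spread among the miRNA libraries than among the controls. Only the miR-372 difference passed, with a log2 fold change of -0.35 (edgeR adjusted p 0.019, SE 0.0919). For miR-302a and miR-373 the values were -0.26 (edgeR adjusted p 0.085, SE 0.0919) and -0.28 (edgeR adjusted p 0.083, SE 0.0916).

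Several of these calls were lost when 1 library was left out, and most such fits called fewer of all genes too. With miR-302a, 1107 of all genes were called with all libraries. Without 1 library it was 479 to 665, except without miR-302a replicate 2 (1764). With miR-372 it was 1599, and 856 to 1075 except without miR-372 replicate 3 (1827). With miR-373 it was 721, and 346 to 502. ATP6V0A2 stayed called with miR-372 whichever library was left out. With miR-302a its edgeR adjusted p was 0.0529 without empty vector replicate 2, 0.0589 without empty vector replicate 3, 0.0742 without miR-302a replicate 1 and 0.0587 without miR-302a replicate 3. With miR-373 it was 0.0600 and 0.0689 without the same controls, 0.0719 without miR-373 replicate 1 and 0.0562 without miR-373 replicate 3. The log2 fold change of ATP6V0A2 in these fits was -0.25 to -0.23 with miR-302a and -0.27 to -0.24 with miR-373. The miR-372 call of ATP6V1B2 was lost without any 1 library except miR-372 replicate 2 (edgeR adjusted p 0.058 to 0.0881). With the 2 groups fitted alone, ATP6V0A2 was lost with miR-302a (edgeR adjusted p 0.0603) and miR-372 (0.0564) and ATP6V1B2 with miR-372 (0.0868), while ATP6V1B2 passed with miR-373 (0.0205). Without a filter on low counts, ATP6V0A2 was lost with miR-302a (edgeR adjusted p 0.095) and miR-373 (0.143). Without miR-302a replicate 2, which lay highest for ATP6V1B2, ATP6V0A1 and ATP6V1C1 in its group, these 3 genes were called lower with miR-302a, at -0.35, -0.36 and -0.38 (edgeR adjusted p 0.0257, 0.0188 and 0.0434).

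ATP6V1C1 held a 7mer-A1 for this seed and had log2 fold changes of -0.21, -0.17 and -0.12, none called. Altogether 1 member was called lower with miR-302a, 2 with miR-372 and 1 with miR-373, and 0 were called higher. The shares of all genes called lower were 4.85%, 6.56% and 3.30%, and the shares called higher 3.02%, 4.82% and 1.83%. Compared directly, the 3 miRNAs did not differ past the threshold in any member or any other gene. With edgeR's quasi-likelihood test, 0% of 14054 genes were called in either direction in each of the 3 contrasts. An unadjusted p under 0.05 was found for 0.868% (miR-302a against miR-372), 1.31% (miR-302a against miR-373) and 1.11% (miR-372 against miR-373). These shares are smaller than that threshold gives when nothing differs, so the test was strict here. The lack of calls thus does not show that the 3 miRNAs act alike. The DESeq2 Wald test called 0, 3 and 1 genes in these contrasts and the likelihood ratio test 1, 3 and 1, none of them a member. The difference in ATP6V1B2 between miR-302a and miR-372 was 0.08 (95% confidence interval -0.11 to 0.28), and that in ATP6V0A2 was 0.04 (-0.085 to 0.17).

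Over the 63 pairs of a tested member and a miRNA, 9 were called lower and 1 higher, where the shares of all tested genes ran from 3.30% to 13.7% lower and from 1.37% to 10.8% higher over the 7 miRNAs. Of the 8 pairs with an 8mer or 7mer-m8 in the 3′UTR, 3 were called lower, and their log2 fold changes ran from -0.52 to 0.12 with a median of -0.27. Over all tested genes with such a match, 6.86% (miR-373) to 30.6% (miR-1) were called lower. Of the 12 pairs with a 7mer-A1 only, 5 were called lower, all 12 values were below 0, and the median was -0.19, where 4.96% (miR-122) to 20.3% (miR-1) of all genes with a 7mer-A1 only were called lower. Of the 43 pairs without a match, 1 was called lower (ATP6V1B2 with miR-122) and 1 higher (ATP6V1E1 with miR-155), with a median of 0.03, where 1.93% (miR-373) to 10.6% (miR-1) of all genes without a match were called lower and 1.57% (miR-133a) to 12.3% (miR-1) higher. These are descriptions, since the pairs of the miR-302a family repeat 1 seed and share controls. Of the members without any called change, ATP6V1H ranged from -0.13 to 0.14, ATP6V1D from -0.12 to 0.18 and ATP6V0D1 from -0.06 to 0.28 over the 7 comparisons.

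The other 15 subunit genes, of which 12 were tested, held changes of similar size. With miR-155, ATP6V1G1, a peripheral stalk subunit, fell from 104 ± 7.16 to 49.5 ± 8.55 CPM (SD, n = 3), a log2 fold change of -1.07 (edgeR adjusted p 3.3e-05, SE 0.133), a change of -52.3% beside -51.3% for ATP6V1C1, which binds the same stalks. ATP6V0E2, a small membrane subunit, rose by 0.40 on the log2 scale (edgeR adjusted p 0.022). With miR-133a, ATP6AP2, an accessory subunit also known as the prorenin receptor, fell from 158 ± 16.7 to 85.4 ± 1.60 CPM (log2 fold change -0.89, SE 0.0901, edgeR adjusted p 2.4e-06). The decreases in ATP6AP2 and ATP6V1G1 were called under all 13 alternatives. Other matches stood beside no call. They include an 8mer for miR-155 in VMA21, an assembly gene, and an 8mer for the miR-302a family in ATP6V0B. ATP6V0E2 held a 7mer-m8 for miR-122, likewise without a call. The matches printed next were picked because they stand beside called decreases, in ATP6AP2, ATP6V1G1 and VMA21.
ATP6AP2 miR-133a 7mer-m8 (chrX:40465826-40465855, plus strand): tttttatgttggagtGGACCAAtgtctatc
ATP6V1G1 miR-155 7mer-A1 (chr9:117360100-117360129, plus strand): cattcttatgatatgGCATTAAattatttc
VMA21 miR-122 7mer-m8 (chrX:150574530-150574559, plus strand): atgtgcaatctaaaaACACTCCcacaagta

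VMA21 is not a subunit but the chaperone that assembles V0 in the endoplasmic reticulum. It fell from 120 ± 1.42 to 82.7 ± 3.12 CPM with miR-122 (SD, n = 2), a log2 fold change of -0.54 (edgeR adjusted p 8.3e-08, SE 0.0457), and by 0.18 with miR-1 (edgeR adjusted p 0.0055). Among the 11 tested assembly and regulation genes, DMXL1, a part of the complex that joins V1 to V0, fell with miR-122 (-0.34, edgeR adjusted p 0.0011). DMXL1 held an 8mer for miR-122 in its coding sequence and no miR-122 match in its 3′UTR. TBC1D24 (0.29, edgeR adjusted p 0.0018) and WDR7 (0.23, edgeR adjusted p 0.013) rose with miR-1. NCOA7, a V1-binding protein, fell with the miR-302a family (in the order above, -0.49, -0.57 and -0.44, edgeR adjusted p 0.0012, 2.5e-04 and 0.0034), and so did the related OXR1 (-0.37, -0.36 and -0.39, edgeR adjusted p 0.013, 0.012 and 0.013). The 3′UTRs of NCOA7 and OXR1 each held an 8mer and a 7mer-m8 for the seed of this family. The call of VMA21 with miR-1 was lost without either miR-1 library (edgeR adjusted p up to 0.0678) and that of DMXL1 with miR-122 without miR-122 replicate 1 (0.0751). WDR7 was lost without miR-1 replicate 1 or empty vector replicate 2 (edgeR adjusted p up to 0.148), and OXR1 without empty vector replicate 1 of batch 2 in all 3 comparisons and without 1 or 2 of the miRNA libraries in each (edgeR adjusted p up to 0.0891). The calls of NCOA7 with the miR-302a family, of TBC1D24 and of VMA21 with miR-122 were made under every alternative.

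Of the 12 other subunits tested, 2 were called lower with miR-1 (ATP6V1F, -0.17, and the scarce ATP6V1B1), 1 with miR-133a and 1 with miR-155, and 1 was called higher, with miR-155. Of all genes, 13.7%, 3.97% and 4.81% were called lower with these 3 miRNAs, and 2.82% higher with miR-155. Leaving out 1 library lost ATP6V1F in 3 of 4 fits, ATP6V1B1 in 3 of 4 and ATP6V0E2 in 3 of 6. None was called by edgeR with miR-122 or with the miR-302a family, where their log2 fold changes ran from -0.47 to 0.52. The counts for the 11 assembly genes were 1 lower and 3 higher with miR-1, 2 lower with miR-122, 2 lower with each miRNA of the miR-302a family, and 0 with miR-133a and miR-155. Beside them stand 13.7% lower and 10.8% higher of all genes with miR-1, 4.06% lower with miR-122 and 3.30% to 6.56% lower with the miR-302a family. In the direct contrast, 4 of the 12 other subunits were lower with miR-1 than with miR-122 and 0 higher, beside 16.0% and 15.2% of all genes. The lowest were ATP6V1B1 (-1.37, at 0.827 against 2.16 CPM), called under each alternative that tested it, and ATP6V0E1 (-0.19, edgeR adjusted p 0.032), which was lost in 3 of 4 fits without 1 library (edgeR adjusted p up to 0.299) and in the DESeq2 Wald test. The other 2 were likewise each lost in 3 of those 4 fits.

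**Figure D5:**
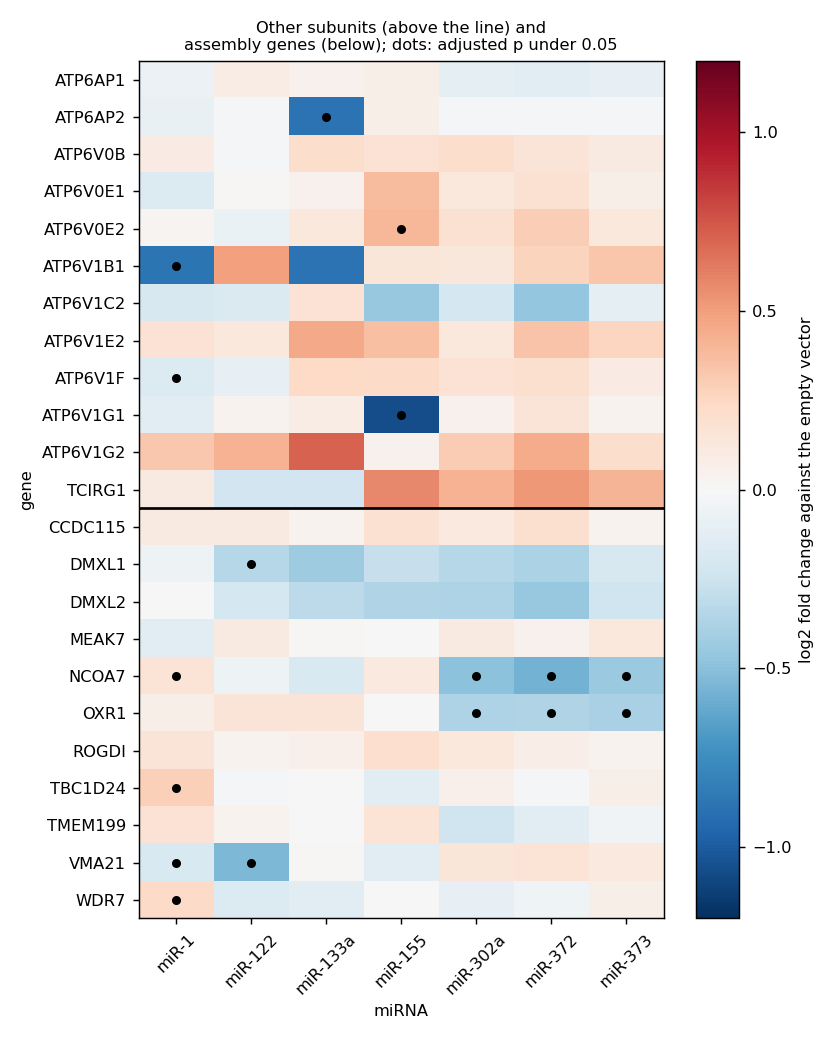
Log2 fold change against the empty vector (colour) of the other tested subunits (above the line) and the assembly and regulation genes (below it), for the 7 miRNAs. Dots mark adjusted p under 0.05. ATP6V1G1 with miR-155 (-1.07) and ATP6AP2 with miR-133a (-0.89) were the lowest called values.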

How the data were processed

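RNA-seq of 24 polyA-selected, strand-specific libraries from 1000 ng of RNA was used. The authors aligned reads to hg19 with TopHat2 2.1.1 and deposited raw counts per gene over exons from featureCounts (strand-specific, unique reads of high mapping quality), with the exon length of each gene in bases, one table per batch. The tool names and versions, edgeR 3.24.3 included, come from the submitters' processing notes. A further 14 deposited tables hold the authors' own comparisons (log2 fold changes, mean log2 CPM, likelihood ratios, p-values and q-values, from RNA-seq alone or combined with PRO-seq) and were not used.

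Identifiers were matched to GENCODE v44lift37 (GRCh37), and 28543 of 29794 genes had a symbol. In R 4.3.3 with edgeR 4.0.16, genes were kept per batch by filterByExpr (minimum count 10; 14348 and 14054 genes), scaled by TMM and fitted with all groups of the batch by quasi-likelihood. Tests were two-sided, adjusted by Benjamini-Hochberg over all genes tested, with a threshold of 0.05. A called gene is one past it. Fold changes used a prior count of 0.125. CPM use TMM-scaled library totals. Replicates differed beyond sampling noise (chi-square per degree of freedom 1.62 to 26.6), so each counted once. Functions were tested on simulated data.

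All 10 members are named, in every comparison in which they were called and by range otherwise, and ATP6V1A and ATP6V1B2 with miR-1 in each library. Of each context list (other subunits, assembly, nutrient sensing, lysosome), at most 2 lowest and 2 highest called genes per comparison are named. Members and lists were chosen with earlier results of these data known. LHX1, a further HEK293 marker of the list, was not analysed here. Alternatives were DESeq2 1.42.0 size factors, its Wald test, edgeR's likelihood ratio test, no filter, a stricter filter (above 1 CPM in all libraries), the 2 groups alone, the replicate number as a block, leaving out each library and other seed match definitions. Deviations from the group mean were correlated between same-numbered libraries. All 3 correlations were over 0.1 only for miR-302a against miR-372 (0.227, 0.336 and 0.161). They were 0.0217, 0.575 and 0.386 for miR-302a against miR-373, and 0.0557, 0.356 and 0.505 for miR-372 against miR-373. The main fits did not use the replicate numbers as pairs.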

Additional observations from a re-analysis of the deposited data

How the results depend on the processing

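Over all alternatives, 101 of 140 counts stayed within 1.5 times the value reported and 39 moved. The 140 include the contrasts within the miR-302a family, at 0 members throughout, and seed match counts, which involve no library. For single genes, mostly entered because they were called, 1525 values were recomputed. Of these, 1279 kept the call or its absence, 236 lost a call and 9 gained one. The 1 left changed direction (ATP6V1D, miR-155 against empty vector). That uncalled value ran from -0.0639 without miR-155 replicate 2 to 0.144 without miR-155 replicate 1. Fitting the 2 groups alone called 2 members with miR-133a, 1 with miR-155, 0 with miR-302a, 0 with miR-372 and 2 with miR-373. Over all genes, that fit called 2349 with miR-133a, 782 with miR-155, 1027 with miR-302a, 811 with miR-372 and 1060 with miR-373. The main fits called 750, 1073, 1107, 1599 and 721 of all genes in that order. Without a filter, 0 members were called with miR-302a and 0 with miR-373, beside 1220 and 777 of 22466 genes. Leaving out 1 library at a time gave 2 to 4 members with miR-1, 0 to 1 with miR-122, 3 to 4 for miR-1 against miR-122, 0 with miR-133a, 1 to 2 with miR-155, 0 to 4 with miR-302a, 1 to 2 with miR-372 and 0 to 1 with miR-373. In batch 1 this leaves 1 library in a group, which is assumed to vary like the others. The 3 contrasts within the miR-302a family gave 0 members under every alternative. The cause of these differences was not tested.

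With the replicate number as a block, 2 members were called with miR-302a and 2 with miR-373, ATP6V1B2 being the added one (edgeR adjusted p 0.028 and 0.025), and for miR-1 against miR-122 ATP6V0A2 was lost (edgeR adjusted p 0.0515). Over all genes, the block raised the number called from 1107 to 1644 with miR-302a and from 721 to 1122 with miR-373. For miR-1 against miR-122 it lowered that number from 4481 to 3958. What the replicate numbers stand for is not stated. For miR-302a against miR-372, the block gave 0 members, as did the fit without it. The block changed no other call of a member. Over all 10 members and the 5 seeds, 6 pairs had an 8mer or 7mer-m8 in the 3′UTR, 3 had an 8mer, and 15 had a match with 7mer-A1 matches counted, 1 of them the untested ATP6V0C with miR-1.

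With 2 or 3 libraries per group, the SE of a member's log2 fold change was 0.0455 to 0.0634 in batch 1 and 0.0599 to 0.138 in batch 2.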

Other observations

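The lysosome, the main organelle acidified by the V-ATPase, was covered by a list of 29 genes, all tested. With miR-1, 8 were lower and 1 higher, beside 13.7% and 10.8% of all genes, with a median log2 fold change of -0.06. LIPA, the acid lipase (-0.36, edgeR adjusted p 2.3e-05), and GAA, the acid alpha-glucosidase (-0.25, edgeR adjusted p 0.0015), were lowest, and the autophagy receptor SQSTM1 was the one that rose (0.16, edgeR adjusted p 0.0067). Against miR-122, 11 were lower with miR-1 and 1 higher, beside 16.0% and 15.2% of all genes. With miR-122, NEU1 was lower (-0.23) and PSAP higher (0.16), with edgeR adjusted p 0.019 and 0.012. With miR-133a none passed edgeR's threshold, and with miR-155 MITF was lower (-0.77, edgeR adjusted p 0.0023) while TFE3 (0.34) and PSAP (0.27) were higher (edgeR adjusted p 0.012 and 0.021). Of all genes, 4.06% were lower and 1.86% higher with miR-122, 3.97% and 1.37% with miR-133a, and 4.81% and 2.82% with miR-155. PSAP, the saposin precursor, was higher with miR-302a, with miR-372 and with miR-373 (0.34, 0.40 and 0.27, edgeR adjusted p 0.0052, 0.0010 and 0.029). The counts lower and higher were 1 and 3, 2 and 4, and 0 and 1, beside 4.85% and 3.02%, 6.56% and 4.82%, and 3.30% and 1.83% of all genes. LIPA with miR-1, MITF with miR-155 and PSAP with miR-302a and miR-372 were called under every alternative, and the other calls named here were each lost without at least 1 of the libraries.

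In the list of 17 nutrient sensing genes, which act with the V-ATPase at the lysosome, 1 was lower and 2 higher with miR-1. Of all genes, 13.7% were lower and 10.8% higher. The 3 genes were FNIP2 (-0.27, edgeR adjusted p 0.0034), RRAGA (0.24, edgeR adjusted p 0.0026) and MTOR (0.17, edgeR adjusted p 0.026). With miR-122, RPTOR was lower (-0.19, edgeR adjusted p 0.045) and RRAGD higher (0.23, edgeR adjusted p 0.0048), and RRAGD was higher with miR-133a as well (0.31, edgeR adjusted p 0.0065). With miR-155, FNIP2 (-0.37) and RHEB (-0.32) were lower and MLST8 (0.39) higher (edgeR adjusted p 0.019, 0.044 and 0.0078). MLST8 was also higher with miR-302a (0.32) and miR-372 (0.34), and FNIP2 lower with miR-302a (-0.38), at edgeR adjusted p of 0.014 to 0.024. With miR-373 no gene of the list passed edgeR's threshold. The shares of all genes called lower and higher were 4.06% and 1.86% with miR-122, 3.97% and 1.37% with miR-133a, and 4.81% and 2.82% with miR-155. They were 4.85% and 3.02% with miR-302a, 6.56% and 4.82% with miR-372, and 3.30% and 1.83% with miR-373. FNIP2 and RRAGA with miR-1 were called under every alternative, and the other calls named for this list were each lost without at least 1 of the libraries.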
